A study of Mus musculus with 2 samples.

Results

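The genes examined were 40 listed chaperone and heat shock genes, listed by gene name with no threshold on their values here, and all 40 were found among the 32285 genes counted in the libraries. By textbook knowledge of the heat shock response they were split into 10 inducible, 7 partly inducible and 23 constitutive members. Their levels were read in 1 library of WT and 1 library of Pac1-/- lung group 2 innate lymphoid cells (ILC2s), which are tissue-resident lymphocytes that make type 2 cytokines. Pac1 is the older name of the gene Dusp2, which encodes a nuclear dual-specificity phosphatase of MAP kinases, and no source restricts its deletion in the Pac1-/- mice to a cell type. Both groups came from young adult, sex- and age-matched mice on the C57BL/6J background, with no treatment named in the labels, and the sorted cells carried CD90.2 with ST2 and Sca-1 and no lineage marker. Cells of several mice were pooled per genotype and carry no mouse label, so that genotype, pool, preparation and library cannot be told apart, and no test between genotypes was possible.

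Chaperones bind unfolded protein and help it fold, assemble or reach degradation. HSP70 proteins work in an ATP cycle that J-domain proteins start and nucleotide exchange factors reset. HSP90 and its cochaperones act later, on kinases and receptors, and the ring-shaped TRiC complex folds actin and tubulin. Heat shock factor 1 (HSF1) switches on the inducible members when unfolded protein accumulates, by binding promoter elements built from inverted repeats of a short GAA unit, whereas the constitutive members serve folding in unstressed cells.

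Words of the heat shock element in members' promoters are shown first because HSF1 is known to act through such elements, and no relation between a word and a member's values was tested. Dnajb1, for example, had no word, and Chordc1 had 5. Promoters of 250 bases before and 50 bases after the start site were taken from RefSeq on GRCm38.p6, and 33 of the 40 members had at least 1. Some members had promoters at more than 1 start site, and a word in any of them counted. Dnajb4, Dnaja4, Hspd1, Dnaja1, Cct2 and Cct5 each had a promoter with a word and another without. The words searched were GAANNTTC and TTCNNGAA, which are each their own reverse complement and so cover both strands, and which overlap when units follow each other. At least 1 of these 2-unit words lay in a promoter of 7 of 9 inducible, 5 of 7 partly inducible and 5 of 17 constitutive members, against 17.0% of all 27025 genes in the table. A run of 3 alternating units in 13 bases lay in 1, 3 and 1 of them, against 0.662% of all genes. These shares describe letters in a window and show neither binding nor its absence. Hspa8, Hspa9, Hsp90aa1, Hsp90ab1, Dnajc2, Hsf1 and Cct4 had no entry. The stretches below are those of the HSP70 pair that led the inducible members, of the mitochondrial chaperonin pair that is transcribed in opposite directions from a shared promoter, of 3 other inducible members and of Dnajb6, the member with the lowest ratio between genotypes. Capitals mark the words found, and each sequence runs 5′ to 3′ on the gene's own strand.
Hspa1a, chr17:34972233-34972280, minus strand: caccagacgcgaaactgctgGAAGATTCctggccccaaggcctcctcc
Hspa1b, chr17:34959315-34959362, minus strand: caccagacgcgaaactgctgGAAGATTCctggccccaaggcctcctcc
Hspe1, chr1:55088039-55088096, plus strand: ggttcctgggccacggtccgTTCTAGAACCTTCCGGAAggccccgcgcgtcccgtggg
Hspd1, chr1:55088039-55088096, minus strand: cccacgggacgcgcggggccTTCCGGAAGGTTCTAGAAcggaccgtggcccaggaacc
Hspb1, chr5:135887782-135887849, plus strand: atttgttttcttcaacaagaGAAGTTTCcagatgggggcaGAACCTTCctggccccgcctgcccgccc
Dnaja4, chr9:54699449-54699534, plus strand: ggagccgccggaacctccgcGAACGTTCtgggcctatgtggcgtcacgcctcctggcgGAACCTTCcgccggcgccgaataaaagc
Dnajb4, chr3:152193846-152193879, minus strand: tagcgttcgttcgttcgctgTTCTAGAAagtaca
Dnajb6, chr5:29735832-29735884, plus strand: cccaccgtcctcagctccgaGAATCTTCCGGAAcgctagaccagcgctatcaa
The word began 104 bases before the start site in both Hspa1a and Hspa1b, whose 250 upstream bases were identical at 247 positions (98.8%). Hspd1 and Hspe1 share 1 element, read from opposite strands, and are not independent matches.

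The WT library held 10866 barcodes and the Pac1-/- library 9495, from 13000 cells loaded each. The analysis kept barcodes that reached 500 genes and did not exceed 10% mitochondrial UMIs (unique molecular identifiers, 1 per captured transcript). These numbered 8394 and 7087 and are called cells here. They held 54579034 and 58338886 UMIs, with medians of 4186.5 and 5577 per cell and median mitochondrial shares of 2.50% and 3.27%. Dusp2 had 1419 UMIs in WT and 5 in Pac1-/-, which agrees in direction with the labels. Of 9 ILC2 markers, 99.1% and 98.97% of cells showed at least 2. At least 2 markers of T cells were found in 4.23% and 2.89%, of epithelium in 0.762% and 2.37%, and of red cells in 0.834% and 3.05%, and Hba-a1 was found in 8.94% and 21.5%. The libraries shared 29 barcode sequences, 15 of them passing the filter in both. The summed inducible members, described below, had a log2 ratio of 0.60, which was 0.61 without barcodes with markers of T cells, epithelium and the other nucleated types checked, and 0.61 with at most 5% mitochondrial UMIs. The part of the red cell markers and of the shared barcodes was not tested.

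The inducible members together took more of the transcripts in Pac1-/- than in WT, and the HSP70 pair Hspa1a and Hspa1b made most of that difference, while the constitutive members together sat close to the typical gene. The inducible sum was 2801 CPM (UMIs per 1000000 UMIs of the library) in WT and 4244 CPM in Pac1-/-, a log2 ratio of 0.60 (0.59 to 0.61). Hspa1a and Hspa1b accounted for 1495 and 2564 CPM of these sums. The constitutive sum was 6119 and 6748 CPM, a log2 ratio of 0.14 (0.13 to 0.15). The median log2 ratio of the 12427 genes with at least 50 UMIs was 0.19, and the ratios that follow are relative to this median gene unless said otherwise. On that scale the inducible sum stood at 0.41 and the constitutive sum at -0.05, so that the sign of the constitutive sum depends on the scaling. The constitutive sum also rested on Hspa8 and Hsp90ab1, and without them its log2 ratio before centring was -0.02. All intervals are 95% intervals for counting error only, and do not cover differences between mice or preparations.

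Member by member the classes were less distinct. Relative ratios had a median of 0.16 over the 10 inducible members, with 6 above and 4 below the median gene, and of -0.03 when Hspa1a and Hspa1b were left out. The median was 0.32 over the 7 partly inducible and 0.01 over the 23 constitutive members, and over all genes it is 0 by construction. The partly inducible sum was 1909 CPM in WT and 2070 CPM in Pac1-/-, a relative log2 ratio of -0.07 (-0.08 to -0.06) and 0.12 before centring. Its relative ratio thus differs in sign from the median of these members. Beyond counting error, 21 of 40 members lay above and 15 below the median gene, against 37.3% and 41.1% of all genes with at least 800 UMIs (32.9% and 35.5% of those with at least 50). Past 1.5-fold, 3 of 40 members were higher in Pac1-/- (Hspa1a, Hspb1 and Hspa14) and 3 were lower (Dnajb6, Bag3 and Cdc37). Over all genes with at least 50 UMIs 8.22% were higher and 12.8% lower past 1.5-fold, and over the 8062 genes with at least 800 UMIs, as every member had, 4.58% and 9.85% were. The counts past 1.5-fold are near these background shares and are no result about the members as a list. Without barcodes over 2 times the median UMIs Hspb1 stood at 0.53, under the 1.5-fold mark, and before centring Cdc37 fell short of it at -0.45 while Hspa1b, Dnajb1 and Ahsa1 passed it at 0.66, 0.68 and 0.73.

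**Figure D1:**
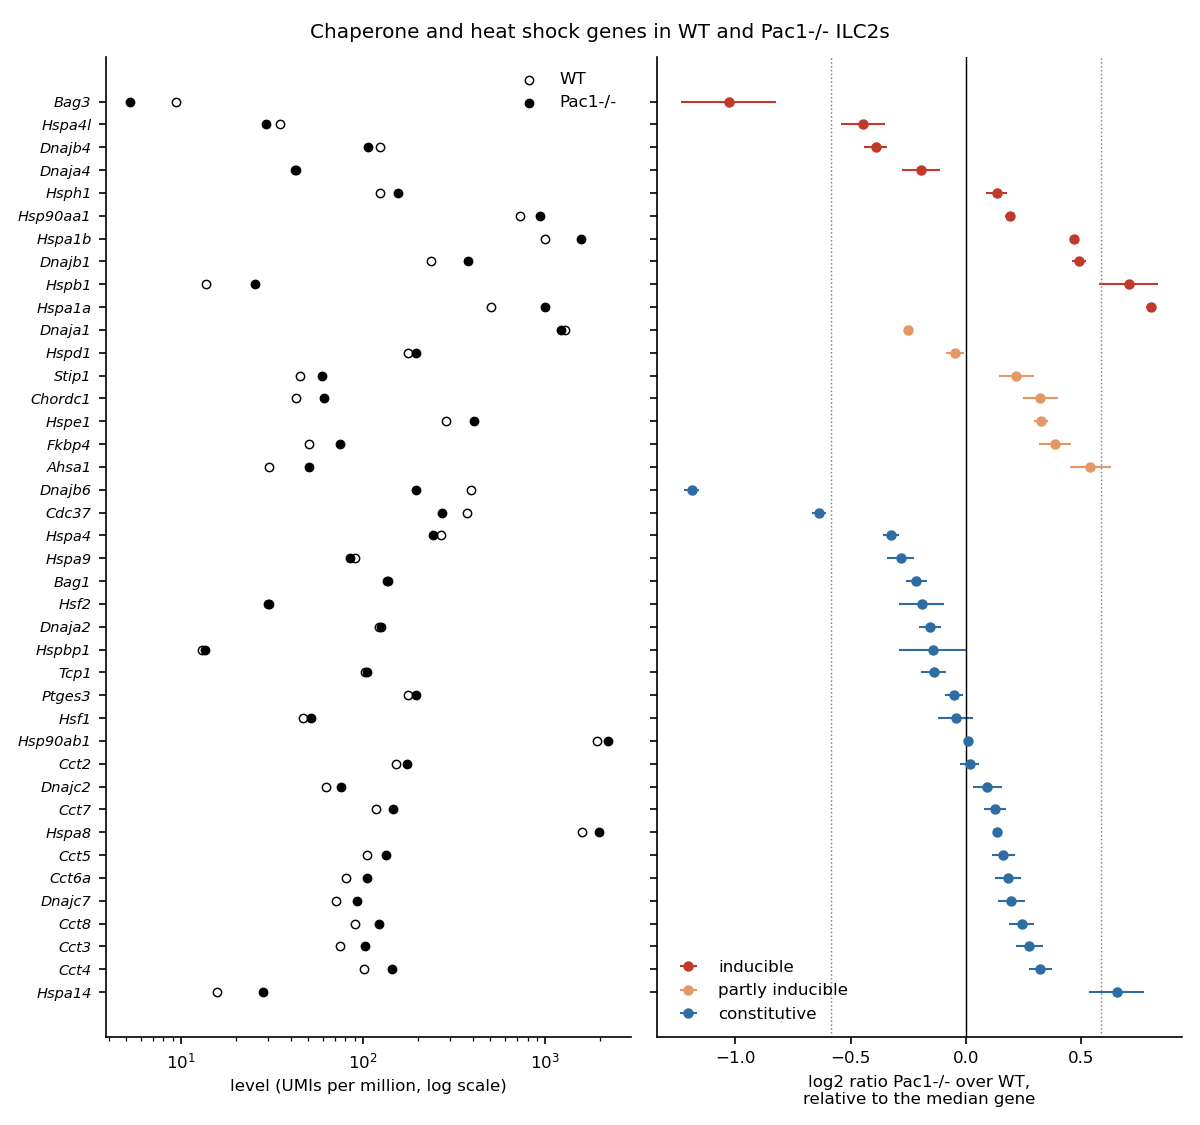
Levels of the 40 members in WT (open points) and Pac1-/- (filled points) in CPM on a log scale (left), and their log2 ratios relative to the median gene with 95% counting intervals (right), grouped by class; dotted lines mark 1.5-fold. Hspa1a lies furthest right at 0.80 and Dnajb6 furthest left at -1.19, and the classes overlap.

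Among the HSP70 proteins, Hspa1a and Hspa1b encode the stress-inducible cytosolic form. Hspa1a had 503 CPM in WT and 1000.3 CPM in Pac1-/-, a relative log2 ratio of 0.80 (0.78 to 0.82). Hspa1b had 992 and 1564 CPM, a ratio of 0.47 (0.45 to 0.48). Both were higher in Pac1-/-, and unequally so, since Hspa1a made up 33.7% (33.3 to 34.0%) of the pair's UMIs in WT and 39.0% (38.8 to 39.3%) in Pac1-/-. The last 500 bases of their transcripts shared no stretch of 91 bases, so that reads near the 3′ end could be told apart. Hspa8, the constitutive cytosolic HSP70, had 1587 and 1983 CPM, a ratio of 0.13 (0.12 to 0.15). Hspa9, the mitochondrial HSP70, had 90.1 and 84.3 CPM, a ratio of -0.28 (-0.34 to -0.23). Hspa14, an HSP70 relative found at ribosomes, had 15.8 and 28.3 CPM, a ratio of 0.65 (0.53 to 0.77), and shares its strand and position with the gene model Gm45902, so that its count is uncertain.

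The HSP110 proteins act as exchange factors for HSP70. Hsph1, listed as inducible, had 124 and 155 CPM, a relative log2 ratio of 0.13 (0.09 to 0.18), but 0.038 with each cell weighing the same. Hspa4 had 267 CPM in WT and 242 CPM in Pac1-/-, and Hspa4l, also listed as inducible, 35.1 and 29.3 CPM. Both of these lay below the median gene, at -0.32 and -0.45. Of the other exchange factors, Bag1 stood at -0.22 and Hspbp1 at -0.14, the latter with an interval that reached past 0. Bag3, an inducible cochaperone that links HSP70 to autophagy, was the scarcest member, with 9.40 CPM (513 UMIs) in WT and 5.25 CPM (306 UMIs) in Pac1-/-, and its ratio of -1.03 (-1.24 to -0.82) ran opposite to that of the HSP70 pair.

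For HSP90, the inducible Hsp90aa1 had 722 CPM in WT and 938 CPM in Pac1-/-, a relative log2 ratio of 0.19 (0.17 to 0.21). The constitutive Hsp90ab1 was the most abundant member, with 1919 and 2196 CPM, and its ratio of 0.01 could not be told from that of the median gene. Of its cochaperones, Ahsa1, which activates the HSP90 ATPase, stood at 0.54, Fkbp4, a prolyl isomerase of receptor complexes, at 0.38, Chordc1 at 0.32 and Stip1, which bridges HSP70 and HSP90, at 0.22. Each of these 4 lay above the median gene beyond counting error, as did 37.3% of all genes with at least 800 UMIs. For Ahsa1, 33.4% of the 91-base stretches at the transcript's end also occur in Gm49207, which makes its count uncertain. Cdc37, which brings kinases to HSP90, went the other way, from 370 to 271 CPM (-0.64, interval -0.67 to -0.61). Ptges3 stood at -0.05, and its sign turned to 0.033 without barcodes over 2 times the median UMIs, 0.041 with each cell weighing the same and 0.13 before centring. The cochaperones' sum, to which Cdc37 contributes most, was 716 and 711 CPM, so that the median of the 6 (0.27) and their sum (-0.20) differ in sign.

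Of the mitochondrial chaperonin, Hspd1 (HSP60) had 177 and 195 CPM and Hspe1 (HSP10) 285 and 407 CPM. Their relative log2 ratios were -0.05 and 0.33, so that the pair with the shared promoter element did not keep a fixed ratio between the libraries. That of Hspd1 was -0.083 with each cell weighing the same, -0.072 without barcodes over 2 times the median UMIs and 0.14 before centring. The count of Hspe1 is uncertain, since its transcript end is not unique in sequence.

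The J-domain proteins, which deliver clients to HSP70, differed widely. Dnajb1, the main inducible one, had 236 CPM in WT and 377 CPM in Pac1-/-, a relative log2 ratio of 0.49 (0.46 to 0.52). Dnaja1, the most abundant, had 1278 and 1222 CPM, a ratio of -0.25 (-0.27 to -0.24). Dnajb4 and Dnaja4, both listed as inducible, stood at -0.39 and -0.19, the latter -0.33 without barcodes over 2 times the median UMIs. Dnajb6, which suppresses protein aggregation, had 389 CPM in WT and 194 CPM in Pac1-/-, and its ratio of -1.19 (-1.22 to -1.16) was the lowest of the 40. At a common depth of 1500 UMIs 39.4% of WT cells and 24.2% of Pac1-/- cells had a UMI of it, and without thinning 70.1% and 59.95% did. Dnaja2 stood at -0.16 (-0.0997 without barcodes over 2 times the median UMIs and 0.031 before centring). Dnajc2 stood at 0.09 (0.053 without those barcodes) and Dnajc7 at 0.20.

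The transcription factors of the response were low and nearly level. Hsf1 had 46.8 and 51.7 CPM and a relative log2 ratio of -0.04, with an interval that included 0. Hsf2 had 30.2 CPM in both libraries, a ratio of -0.19 once centred.

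The TRiC subunits differed little between the libraries. Of the 8, 7 lay above the median gene, 6 of them beyond counting error (37.3% of all genes with at least 800 UMIs), with a median of 0.17 and a range from -0.14 (Tcp1, at 0.047 before centring) to 0.32 (Cct4). Their sum was 822 CPM in WT and 1031 CPM in Pac1-/-. None passed 1.5-fold.

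The small heat shock protein Hspb1, which holds unfolded protein until HSP70 takes it over, was found in few cells. It had 13.8 CPM in WT and 25.6 CPM in Pac1-/-, a relative log2 ratio of 0.71 (0.58 to 0.83). It was found in 2.03% and 3.03% of cells, and in WT the 72 cells with at least 3 UMIs held 84.0% of its UMIs. In Pac1-/- 93 such cells held 89.7%. Of these, 71 of 72 and 88 of 93 had at least 2 ILC2 markers, and at least 2 markers were found for endothelium in 1 and 2, stroma in 1 and 3, epithelium in 1 and 4, and T cells in 7 and 2. Their median depth was 9659.5 and 9602 UMIs against 4167.5 and 5545.5 in cells without Hspb1, and its relative log2 ratio was 0.53 without barcodes over 2 times the median UMIs. The part of doublets in these values was not tested. After thinning, 18 WT and 26 Pac1-/- cells kept at least 3 Hspb1 UMIs, and the other inducible members summed to a median of 17 and 16 UMIs there against 2 in cells without Hspb1 in each library.

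The second question was how evenly the members were spread over cells. Random thinning brought every cell to 1500 UMIs, which left 7634 WT and 6564 Pac1-/- cells and dropped 760 and 523 that were shallower. Spread was measured as the excess CV, the part of the coefficient of variation that is beyond Poisson counting, which is 0 when all cells share 1 level. All 7 inducible members with a mean of at least 0.05 thinned UMIs in both libraries had an excess CV of at least 1 in both, as did 2 of 6 partly inducible members (Dnaja1 and Hspd1) and 0 of 20 constitutive members. These 9 members passed in each of 21 thinnings. Of all 3341 genes that abundant, 10.0% passed the same mark. Hspa1a had an excess CV of 2.35 in WT and 2.01 in Pac1-/-, Hspa1b 2.02 and 1.77, Dnajb1 2.41 and 2.57, Hsph1 2.39 and 1.92, and Hsp90aa1 1.48 and 1.49. By contrast Hsp90ab1 had 0.58 and 0.56 and Hspa8 0.84 and 0.69, both at higher levels than most inducible members. For scarcer members the value varied among thinnings, as for Dnaja4 (2.02 to 2.92 in WT), and no value is read for Bag3, Hspb1, Hspa14, Hspbp1, Hsf2, Hspa4l or Ahsa1.

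**Figure D2:**
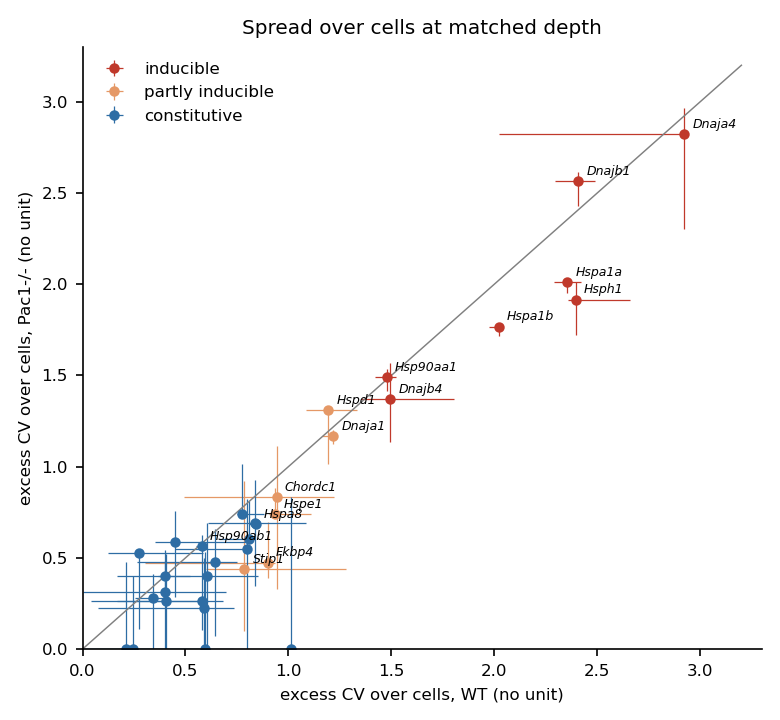
Excess CV over cells at 1500 UMIs per cell (no unit) in WT (horizontal) and Pac1-/- (vertical) for the 33 members abundant enough to measure; bars span the lowest and highest of 21 thinnings and the line marks equality. The 7 inducible members (red) lie above 1 on both axes and apart from most others.

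The inducible sum was low in most cells and high in a minority. Its median was 2 thinned UMIs in WT and 3 in Pac1-/-, and 25.2% (24.2 to 26.2%) and 18.6% (17.7 to 19.6%) of cells had none. At least 10 UMIs were found in 13.2% (12.5 to 14.0%) and 21.2% (20.2 to 22.2%) of cells. The top 10% of cells held 50.4% of the inducible UMIs in WT and 47.4% in Pac1-/-. The constitutive sum had a median of 8 and 9 UMIs, and its top 10% held 20.8% and 20.1%. The excess CV of the inducible sum was 1.58 in WT and 1.48 in Pac1-/-, the highest of 21 thinnings in each library (lowest 1.55 and 1.44), and that of the constitutive sum was 0.39 and 0.37. The sum of Hspa1a and Hspa1b had a median of 0 UMIs in WT and 1 in Pac1-/-, and was 0 in 56.7% and 44.6% of thinned cells. Unthinned, 52.2% of cells in WT and 63.6% in Pac1-/- had an Hspa1b UMI, against 38.0% and 47.4% after thinning. No cell type lacks chaperones, so no background share from free RNA could be measured for these genes.

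**Figure D3:**
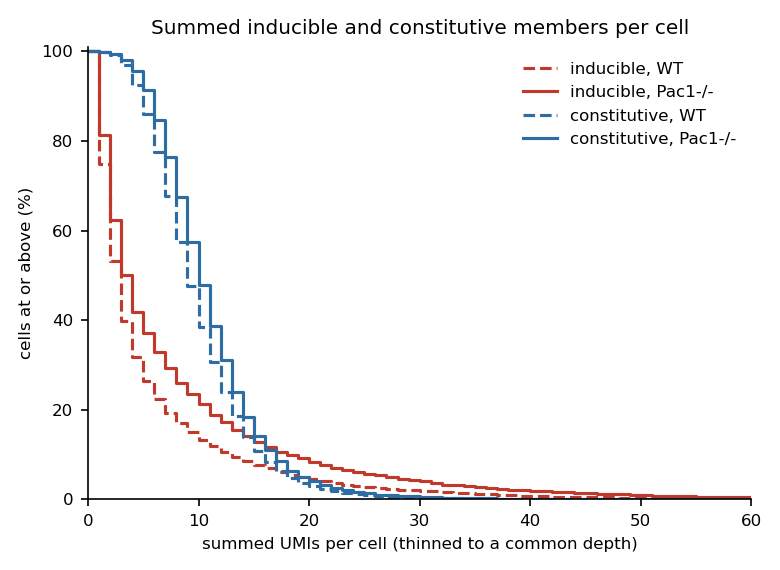
Percentage of cells (vertical) with at least the given number of summed UMIs (horizontal) after thinning to 1500 UMIs, for the inducible (red) and constitutive (blue) members in WT (dashed) and Pac1-/- (solid). At 10 UMIs the inducible curves stand at 13.2% and 21.2%, and their long tail crosses the steeper constitutive curves.

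Several of the members that varied over cells also varied together. Over the thinned cells, which share library and depth, Hspa1a and Hspa1b had a Pearson r of 0.58 in WT and 0.61 in Pac1-/-, Hspa1b and Hsp90aa1 0.43 and 0.47, and Hspa1b and Dnajb1 0.41 and 0.42. These correlations are descriptions over 7634 and 6564 cells of a single library each. The 7 inducible members with a mean of at least 0.05 thinned UMIs in both libraries formed 21 pairs. These pairs had a median r of 0.19 in WT (0.01 to 0.58) and 0.14 in Pac1-/- (0.06 to 0.61). Of them, 10 exceeded 0.2 in both libraries, as did 0.00948% of all pairs of equally abundant genes. The 28 pairs of TRiC subunits had a median of 0.003 and 0.01, at which sparse counts show nothing. Class and behaviour parted for a few members. Hspa8 and Hsp90ab1, listed as constitutive, followed the inducible sum with r of 0.53 and 0.41 in WT and 0.50 and 0.40 in Pac1-/-, as did the partly inducible Dnaja1 (0.44 and 0.46), Hspe1 (0.30 and 0.26) and Hspd1 (0.26 and 0.24). The listed inducible member Hspa4l did not, at 0.0003 and 0.01, although it was scarce. Among the 190 pairs of the 20 constitutive members with at least that mean, only Hspa8 with Hsp90ab1 exceeded 0.2 in both libraries.

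**Figure D4:**
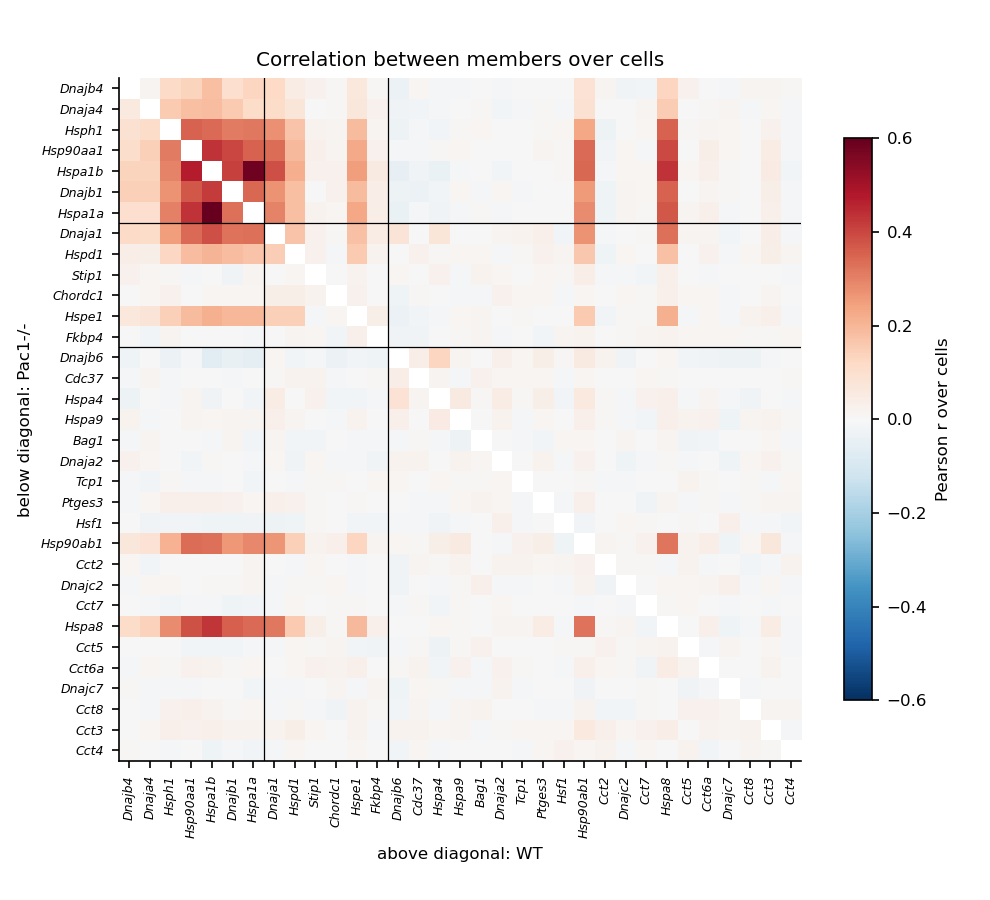
Pearson r over thinned cells between the 33 measurable members, WT above and Pac1-/- below the diagonal, with lines between the inducible, partly inducible and constitutive classes. The block at upper left holds the inducible members, led by Hspa1a with Hspa1b (0.58 and 0.61), and the rows of Hspa8 and Hsp90ab1 stand out within the constitutive class.

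The last question was how the members related to Fos and Jun, immediate early genes of the AP-1 factor, and to Klf2, a Kruppel-like factor linked to lymphocyte quiescence and trafficking. Their levels were 2560 and 2960 CPM for Fos, 1754 and 2328 CPM for Jun, and 96.5 and 264 CPM for Klf2, with relative log2 ratios of 0.02, 0.22 and 1.27. Over cells the inducible sum followed Jun most closely, with r of 0.41 in WT and 0.46 in Pac1-/-. It followed Klf2 with r of 0.24 and 0.28, and Fos hardly, with 0.05 and 0.14. With the other 2 genes held constant, r was 0.40 and 0.42 for Jun, 0.21 and 0.22 for Klf2, and -0.08 and -0.04 for Fos. Holding depth and mitochondrial share constant instead left Jun at 0.41 and 0.45. Fos and Jun themselves had an r of 0.27 and 0.33.

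The same held in cells grouped by their UMIs. From cells with no Jun to cells with at least 11 Jun UMIs, the mean inducible sum went from 2.27 to 14.0 UMIs in WT and from 2.93 to 19.7 in Pac1-/-, and the share with Hspa1a or Hspa1b from 27.7% to 69.5% and from 37.2% to 82.6%. Median depth over the 5 groups of Jun went from 4145.5 up to 5555 and back to 4055 UMIs in WT, and from 5264.5 up to 6816 and back to 5721 in Pac1-/-. From cells with no Klf2 to the 77 WT cells with at least 3 Klf2 UMIs the mean went from 3.92 to 19.4, and in Pac1-/- from 5.24 to 17.7 (264 cells). Across the same span of Fos as of Jun it went only from 3.62 to 5.21 in WT and from 4.46 to 9.49 in Pac1-/-. In each group of cells by Jun or Fos the Pac1-/- mean was the higher. For Klf2 the order turned in the highest group, which held only 77 WT cells. No interval was computed for these means, so that this turn is a description only.

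**Figure D5:**
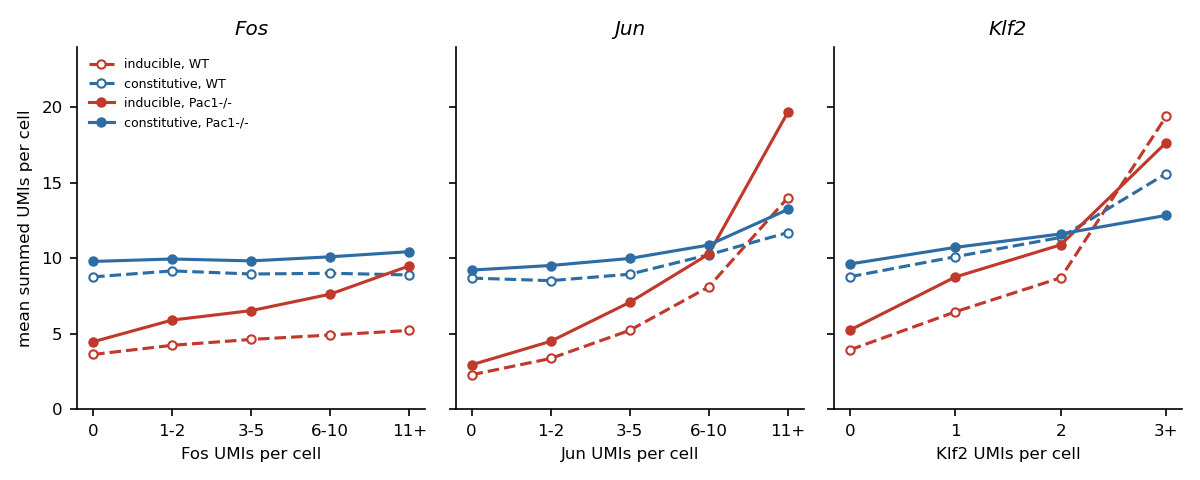
Mean summed UMIs per thinned cell of the inducible (red) and constitutive (blue) members (vertical) in cells grouped by their Fos, Jun or Klf2 UMIs (horizontal) in WT (dashed, open) and Pac1-/- (solid, filled). The inducible sum goes from 2.27 to 14.0 along Jun in WT and only from 3.62 to 5.21 along Fos.

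For Jun and Klf2, single members followed the same order. An r of at least 0.1 in both libraries was reached with Jun by 6 of 10 inducible, 3 of 7 partly inducible and 2 of 23 constitutive members, with Klf2 by 5, 1 and 2, and with Fos by none of the 40. Of all genes with a thinned mean of at least 0.05 in both libraries, 1.17% reached it with Jun, 0.359% with Klf2 and 1.08% with Fos. Only 33 of the 40 members had such a mean, so that the member counts also cover scarcer genes than these shares. The absence of members with Fos is near its share of 1.08% and is no result about the members. In Pac1-/- alone Hsp90aa1 (0.13), Dnajb1 (0.13) and Hspa1b (0.11) passed 0.1 with Fos, whereas the highest r in WT was 0.07. The 2 constitutive members that reached 0.1 with Jun in both libraries were Hspa8 (0.24 and 0.27 with Jun) and Hsp90ab1 (0.15 and 0.20). The constitutive sum had an r with Jun of 0.17 and 0.23, and of -0.07 and -0.06 once these 2 were left out, a split made after seeing the data.

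Of 3308 other genes with a thinned mean of at least 0.05 in both libraries, the 10 most like the inducible sum, by the lower of the 2 values of r, included Jun, Junb (0.28 and 0.36), Ubb (0.27 and 0.35), Klf2, Nfkbia, Dusp1, Phlda1, Btg2 and Zfp36. Fos ranked 76. Ubb encodes polyubiquitin, and Junb, Nfkbia, Dusp1 and Zfp36 are known as early response genes or feedback inhibitors. Of 45 further chaperone and proteostasis genes, 42 had at least 50 UMIs, and 3 were higher and 5 lower past 1.5-fold, near the 8.22% and 12.8% of all genes that abundant and so no result about this list, with a median relative log2 ratio of -0.09. As a description, the highest ratios among those with at least 200 UMIs were those of Sdf2l1 (0.61), Ubb (0.61) and the prefoldin subunit Pfdn6 (0.58). The lowest were those of St13, an HSP70 cochaperone (-0.83), the autophagy receptor Sqstm1 (-0.81) and Dnajb2 (-0.78).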

How the data were processed

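Lung ILC2s were profiled by droplet 3′ sequencing (10x Genomics). The deposited values are unnormalized UMI counts for each gene in each barcode, made by the authors with Cell Ranger on mm10. Its version is 6.1.1 in the submitters' processing notes and 4.0.0 in the file header, and the annotation release is not given in the sources used here. Computation used Python 3.11.15, numpy 2.4.6, scipy 1.17.1, pandas 2.3.3 and matplotlib 3.10.9. Barcodes with at least 500 genes and at most 10% mitochondrial UMIs were kept and no doublet caller was run, but leaving out barcodes over 2 times the median UMIs was an alternative. Levels are UMIs summed per library and scaled to 1000000, with exact Poisson, conditional binomial and Clopper-Pearson 95% intervals. The log2 ratio with its conditional binomial interval, and the excess CV, were tested on simulated counts. For values over cells, each was thinned without replacement to 1500 UMIs with a fixed seed, the deepest of the depths tried that kept at least 90% of cells, and 20 further thinnings gave ranges. All 40 members were named, with Fos, Jun, Klf2 and Dusp2, the 3 highest and 3 lowest other chaperones, and the 10 most similar genes, of which 1 is not reported here. Members and lists were chosen with earlier results of these data known. With 1 library per genotype no test between genotypes, no replicate spread and no p-value was possible.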

Additional observations from a re-analysis of the deposited data

How the results depend on the processing

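A value was counted as moved when it left its counting interval or, for excess CV, the range of 21 thinnings. The median ratio of the inducible members went to -0.030 without Hspa1a and Hspa1b. Before centring, the medians of the inducible, constitutive and all members were 0.35, 0.19 and 0.30, and leaving out barcodes over 2 times the median UMIs gave 0.033 for the constitutive. The log2 ratio of the inducible sum was 0.61 at 5% mitochondrial UMIs and without barcodes with other cells' markers, 0.57 without the deepest barcodes, 0.36 without Hspa1a and Hspa1b, 0.55 with each barcode weighing the same, and 0.41 relative to the median gene. That of the constitutive sum was 0.15 at 5% mitochondrial UMIs and with equal weights, 0.16 without the deepest barcodes, -0.047 relative to the median gene and -0.025 without Hspa8 and Hsp90ab1, an alternative chosen after seeing the data.

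The excess CV of the inducible sum in WT was 1.52 with at least 1000 genes, 1.68 without the deepest barcodes, 1.59 without other cells' markers, 1.40 without Hspa1a and Hspa1b, 1.505 at 3000 UMIs and 1.514 unthinned. In Pac1-/- it was 1.56 without the deepest barcodes, 1.43 without Hspa1a and Hspa1b and 1.42 unthinned. That of the constitutive sum in WT was 0.415 without the deepest barcodes, 0.397 without other cells' markers, 0.376 and 0.369 at 1000 and 3000 UMIs and 0.236 without Hspa8 and Hsp90ab1, and in Pac1-/- 0.391 and 0.188 for the first and last of these. The r with Jun was 0.371 without Hspa1a and Hspa1b, 0.364 and 0.433 at 1000 and 3000 UMIs and 0.427 unthinned in WT, and 0.410, 0.418, 0.483 and 0.488 in Pac1-/-, where leaving out the deepest barcodes gave 0.489. The r with Klf2 was 0.1995 and 0.270 at 1000 and 3000 UMIs and 0.276 unthinned in WT, and in Pac1-/- 0.244 without Hspa1a and Hspa1b, 0.328 at 3000 UMIs and 0.331 unthinned. The r of the constitutive sum with Jun was -0.067 and -0.063 without Hspa8 and Hsp90ab1.

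Of 36 members whose interval left out 0, 32 kept their sign. Before centring Ptges3 was at 0.13, Hspd1 at 0.14, Dnaja2 at 0.031 and Tcp1 at 0.047, and Ptges3 was also at 0.033 without the deepest barcodes and 0.041 with equal weights. Leaving aside the centring, the members among the 36 that kept their sign and moved by over 1.5 times were Hsph1 (0.038) and Hspd1 (-0.083) with equal weights, and Dnaja4 (-0.33), Dnaja2 (-0.0997), Dnajc2 (0.053) and Hspd1 (-0.072) without the deepest barcodes. The causes were not tested. No paired analysis was possible because each genotype has 1 library. Depth limits the cell-level values of members found in few cells, and no alternative replaces a second library.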

Other observations

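Barcodes outside the filter also held inducible members. Under 500 detected genes, the inducible sum was 2522 CPM (2442 to 2603) in 2403 WT barcodes and 3263 CPM (3168 to 3360) in 2110 Pac1-/- barcodes. Over 10% mitochondrial UMIs it was 2547 CPM (2260 to 2861) in 69 WT barcodes and 5353 CPM (5165 to 5546) in 298 Pac1-/- barcodes. In cells passing the filter it was 2801 CPM, a value within the interval of the 69 WT barcodes, and 4244 CPM in Pac1-/-. Fos was at 1385 and 2047 CPM over the limit, against 2560 and 2960 CPM in cells passing the filter.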
